A study of Mus musculus with 96 samples.

Results

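Conjugation enzymes attach a polar group to drugs, hormones, bile pigments and reactive metabolites. The mRNAs of 3 enzyme families were followed along the mouse nephron: the UDP-glucuronosyltransferases (Ugt), the glutathione S-transferases (Gst) and the sulfotransferases (Sult). Members were taken by gene symbol alone, as Ugt1a, Ugt2a, Ugt2b and Ugt3a genes, Gst genes of classes a, m, p, t, z, o and k, and all Sult genes with a numbered subfamily. The rule found 64 genes among the 54532 of the expression table: 21 Ugt, 22 Gst and 21 Sult genes. A total of 46 members reached a level of 1 TPM (transcript abundance corrected for length and scaled to a fixed total) in at least 3 mice and were tested, namely 16 Ugt, 21 Gst and 9 Sult genes; the other 18 never passed 2.09 TPM in any mouse.

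The samples were microdissected pieces of kidney from male C57BL/6 mice aged 6 to 8 weeks on normal chow, with no treatment and no altered gene. Of 93 pieces from 53 mice, 87 were renal tubules of 14 segments and 6 were glomeruli, the filtering tufts, with 3 to 5 mice in each of the 15 groups. The proximal tubule was represented by the initial convoluted segment (PTS1), the straight part in the cortex (PTS2) and the last straight part in the outer stripe of the outer medulla (PTS3). The thin limbs were the short descending limb (DTL1), the long descending limb in the outer (DTL2) and the inner medulla (DTL3) and the thin ascending limb (ATL). MTAL and CTAL were the thick ascending limb in medulla and cortex, DCT the distal convoluted and CNT the connecting tubule, and CCD, OMCD and IMCD the collecting duct in cortex, outer medulla and inner medulla. Each value below is the mean of the pieces of a mouse, and each group value is the mean ± SD over mice. TPM is scaled for transcript length, so levels of different genes can be set side by side, while no read depth can be read from it. A dissected piece holds several cell types, and fewer cells of a type and less RNA per cell cannot be told apart in it.

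Glucuronosyltransferases of the Ugt1 and Ugt2 families transfer glucuronic acid from UDP-glucuronate, whereas the Ugt3 enzymes use other UDP-sugars. Glutathione S-transferases join glutathione to electrophiles, and the conjugate is trimmed at the cell surface and acetylated to a mercapturate, a process in which the proximal tubule has a well-known part. Sulfotransferases use the activated sulfate PAPS as donor. All Ugt1a mRNAs come from a single locus in which each has its own first exon and promoter and shares the remaining exons, and many Gst, Ugt2b and Sult genes lie in clusters of related copies.

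Segment identity and spill-over were examined with marker genes. The summed level of 7 proximal markers (Lrp2, Cubn, Slc34a1, Slc5a2, Slc22a6, Miox and Kap) ranged from 21140 to 84900 TPM in the proximal mice. It was 1084 to 4293 TPM in DTL1, 146 to 476 TPM in DTL2, 6.91 to 40.2 TPM in DTL3, 81.7 to 435 TPM in CTAL, 108 to 546 TPM in CCD and 20.9 to 328 TPM in DCT, against 0.685 to 15.4 TPM in MTAL and 5.26 to 15.1 TPM in OMCD. CNT held 17.5 to 151 TPM, the glomerulus 40.4 to 74.85 TPM, ATL 4.46 to 62.3 TPM and IMCD 0.53 to 3.37 TPM. Kap alone made up most of the sum in each mouse of PTS2, PTS3, DTL1, DTL2, CTAL and CCD, so the sum there mainly follows 1 gene. In the PTS1 mice Kap was 742, 15.2 and 3.95 TPM, beside 9164 to 9764 TPM of Slc34a1. Separately, 1740 odorant and vomeronasal receptor genes, which the kidney is not known to use widely, were counted at 1 TPM or more: 372 to 861 of them in the glomerulus and DTL1 mice, 260 to 517 in DTL2 and DTL3, 17 to 659 in ATL, 69 to 239 in OMCD and 0 to 27 in all other mice. Members at a few TPM in the first 6 of these groups are to be read beside those counts.

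All 46 tested members differed among the 15 groups (limma F-test on log2(TPM + 1), Benjamini-Hochberg adjusted p under 0.05 over 33793 genes). That share is near the background, since 93.9% of all genes tested did so too. A stricter call asked that a gene exceed each of the other 14 groups by at least 1 on the log2 scale and that the test against its nearest group pass. Of the 46 members 10 met it, against 8.8% of all genes tested. PTS1 held 4 of them (Ugt2b34, Gsta2, Ugt1a2 and Ugt1a1), where 0.544% of all genes were called. PTS2 held 2 (Ugt2b37 and Ugt1a6b, with 0.257% of all genes) and IMCD 2 (Gstm2 and Gstm3, with 0.527%). CTAL held Ugt1a6a (0.0651% of all genes) and CNT held Sult2a3 (0.0148%). With 0.1 in place of 1 added to TPM, the calls of Gstm2, Sult2a3, Ugt1a1, Ugt1a6a and Ugt1a6b did not pass. No member had the call in the glomerulus or DTL1, where 3.22% and 2.9% of all genes did. The same was true of PTS3 (0.101%), DTL2 (0.0829%), DTL3 (0.257%), ATL (0.394%), MTAL (0.0562%), DCT (0.21%), CCD (0.0207%) and OMCD (0.148%).

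**Figure D1:**
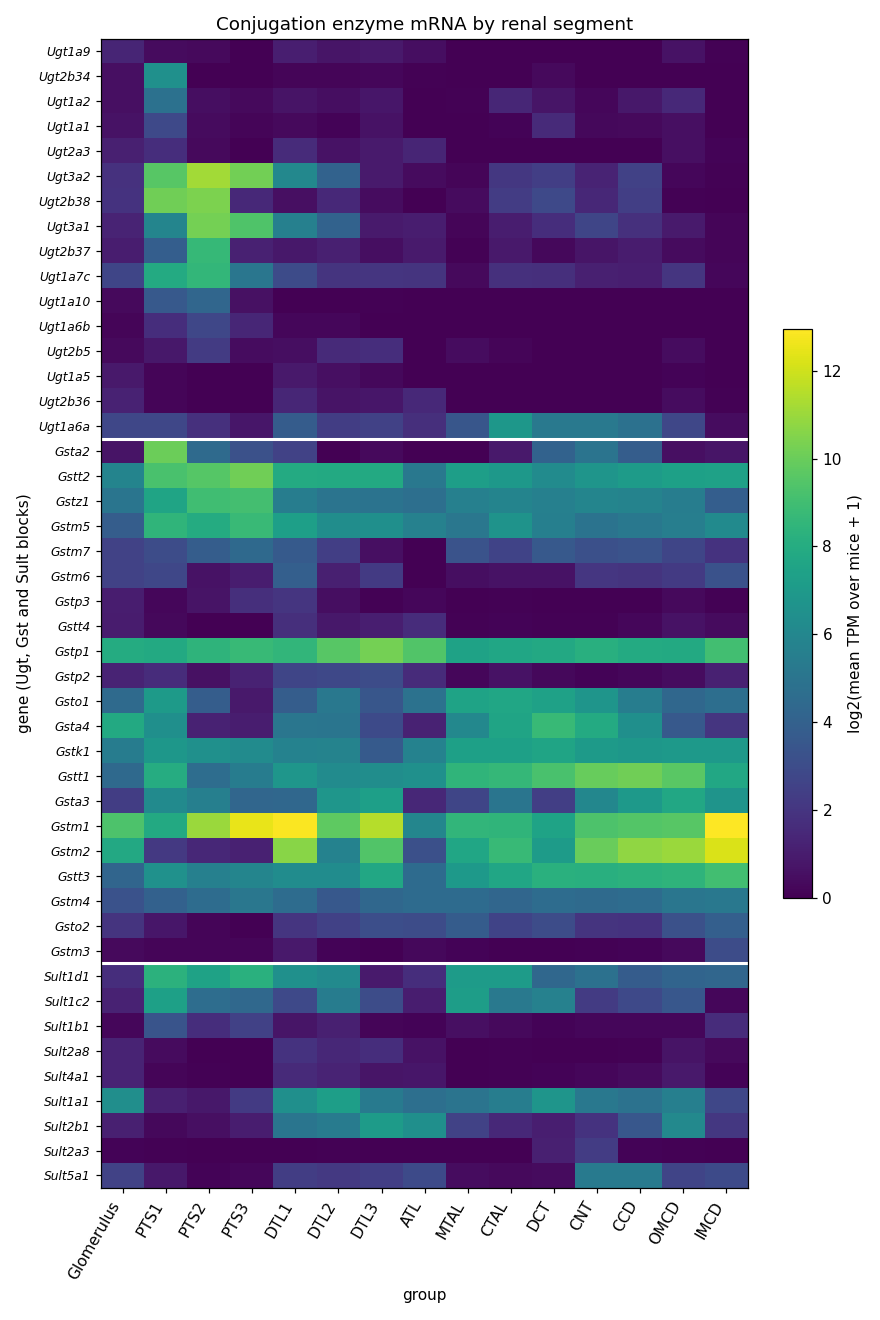
Heat map of the 46 tested members (rows, in Ugt, Gst and Sult blocks) over the 15 groups (columns); the colour gives log2 of the mean TPM over mice plus 1. The brightest Ugt rows, Ugt3a2, Ugt2b38 and Ugt3a1, peak in PTS2, and Ugt1a6a peaks in CTAL. Many Gst rows are bright in many segments, and the highest mean of any Gst gene, 7907 TPM for Gstm1, is in IMCD.

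The 3 families were distributed differently along the nephron. The summed level of the 21 Ugt genes was 2372 ± 594 TPM in PTS1, 5626 ± 387 TPM in PTS2 and 1876 ± 371 TPM in PTS3 (SD, n = 3, 5 and 3 mice). Outside the proximal tubule the highest Ugt sums were 144 ± 59 TPM in DTL1 and 127 ± 17.5 TPM in CTAL, and the lowest was 1.17 ± 0.739 TPM in IMCD. The Gst sum ran the other way in the collecting duct: it was 14540 ± 1172 TPM in IMCD, 10190 ± 430 TPM in DTL1 and 8575 ± 348 TPM in PTS3, and lowest in ATL at 1093 ± 468 TPM. Sult genes summed to 494 ± 89 TPM in PTS1 and to 37.2 ± 10.6 TPM in IMCD, so IMCD held the lowest Ugt and Sult sums and the highest Gst sum of the 15 groups. A few members carried each sum: Gstm1 made up 54.4% of the Gst sum in IMCD, and Ugt3a2 made up 40.1% of the Ugt sum in PTS2.

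**Figure D2:**
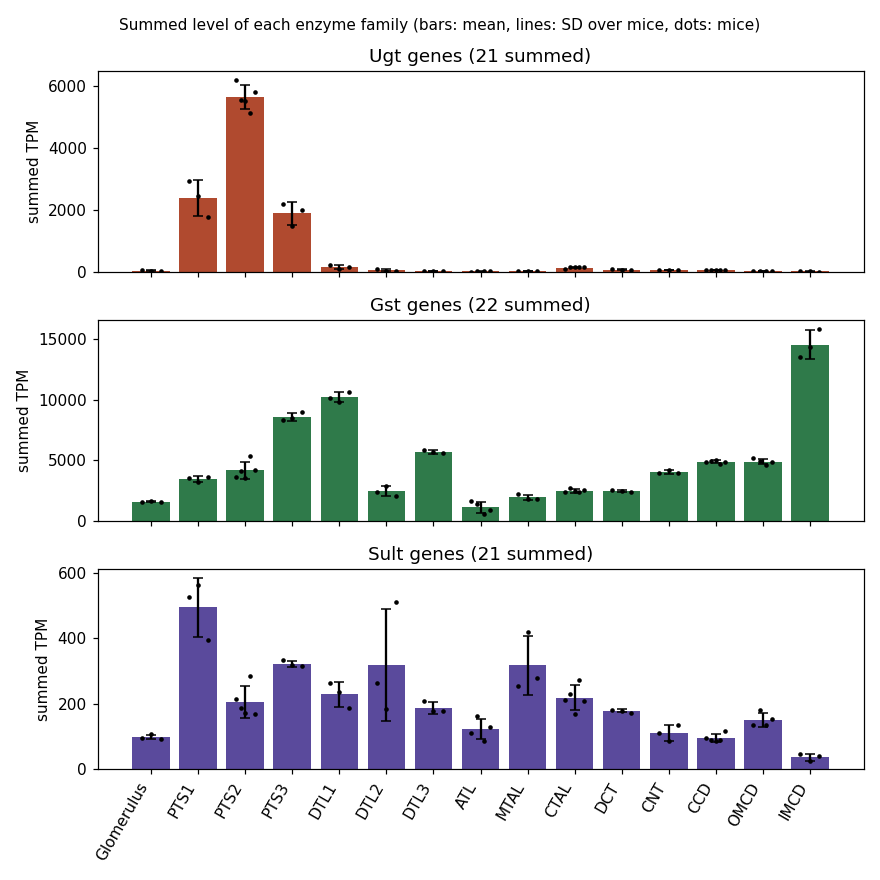
Summed TPM of the 21 Ugt, 22 Gst and 21 Sult genes in each group; bars are means over mice, lines the SD and dots the mice, and each panel has its own axis. The Ugt sum is 1466 TPM or more in each mouse of the 3 proximal segments and 202 TPM or less in each mouse of the other groups.

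Against the mean of the other 11 tubule groups, the mean of the 3 proximal segments was higher for 17 members and lower for 10 (adjusted p under 0.05 and a difference of at least 1 on the log2(TPM + 1) scale). The background was 4.02% of all genes higher and 19.8% lower, 23.8% in either direction. The mice of the proximal and the other tubule groups did not overlap for 6 of the 17 and for 1 of the 10, Gstm2, as for 26.8% and 20% of all genes called higher and lower. The median log2 difference of the members was 0.13, and that of all genes tested was -0.41. It depended on the scaling: the medians were 0.99 and -0.20 with rescaling by the median ratio, and 0.82 and -0.04 with quantile normalization. The 17 included 9 Ugt members, led by Ugt3a2 (8.77 ± 0.21 SE, adjusted p = 3.92e-34) and Ugt3a1 (6.79 ± 0.19, adjusted p = 3.41e-32). Another 4 were the Gst genes Gstz1, the enzyme that isomerises maleylacetoacetate in tyrosine breakdown, Gstt2, Gstm5 and Gstm7. Gsta2 and 3 Sult1 genes (Sult1d1, Sult1c2 and Sult1b1) completed them. The 10 lower members were Gstm2, Sult1a1, Sult2b1, Gsto2, Gsta4, Gstt1, Sult5a1, Ugt1a6a, Gsto1 and Gstt3, of which Gstm2 had the largest difference (-7.31 ± 0.11, adjusted p = 1.32e-41). When mice were rescaled by the median ratio of the genes detected in all of them, 23 members were higher and 8 lower, and with quantile normalization 21 were higher and 7 lower. Gsto1 and Gstt3 lost their calls under both, and Ugt1a6a under quantile normalization.

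PTS1 and PTS2 had their own Ugt genes, whereas no Ugt gene had its highest mean in PTS3. Ugt2b34, a glucuronosyltransferase of the Ugt2b cluster, was listed at 103, 79.8 and 83.8 TPM in the 3 PTS1 mice. It did not exceed 0.015 TPM in any PTS2 mouse and was 0 in every PTS3 mouse. The groups did not overlap, and the highest mouse outside PTS1 stood at 0.72 TPM in DCT. The log2 difference between PTS1 and PTS2 was 6.47 ± 0.13 (SE, adjusted p = 1.06e-35), and no other member differed as much between these groups toward PTS1.

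Ugt2b37 was instead a PTS2 transcript. Its levels were 450, 458, 292, 441 and 427 TPM in the 5 PTS2 mice. PTS1 gave 30.1, 6.82 and 3.39 TPM, and PTS3 0.585, 1.23 and 2.06 TPM. All PTS2 mice lay above all mice of the other groups, and on the log2 scale the PTS1 mice were spread more widely than those of PTS2. In the same PTS1 mice Kap was 742, 15.2 and 3.95 TPM, the same order as for Ugt2b37. The other proximal markers had other orders, among them Slc22a6 at 35.1, 48.3 and 9.42 TPM. The part of spill-over in the PTS1 level was not tested. The log2 difference was -5.33 ± 0.39 for PTS1 minus PTS2 (adjusted p = 2.92e-15) and 7.54 ± 0.39 for PTS2 minus PTS3 (adjusted p = 1.55e-19).

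Ugt2b38 was abundant in both upstream segments and stopped short of the last one. It was listed at 1497, 1265 and 672 TPM in PTS1 and at 1841, 1428, 1173, 1008 and 1297 TPM in PTS2. In PTS3 it was 2.52, 1.72 and 1.3 TPM. PTS1 and PTS2 overlapped, and PTS3 lay below both. The PTS2 minus PTS3 difference of 8.95 ± 0.49 (adjusted p = 8.31e-19) was the largest of any member between neighbouring proximal segments. The closest copy, Ugt2b5, reached 3.72 ± 1.07 TPM in PTS2 and 0.79 ± 0.383 TPM in PTS1 (n = 5 and 3).

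The promoters of these genes are shown because 3 of them are nearly the same sequence while the levels of the mRNAs were not. Each is a stretch from 250 bases before to 50 bases after the annotated start, from RefSeq on GRCm38.p6, read 5′ to 3′ on the gene's strand. Capitals mark the longest run that Ugt2b37, Ugt2b38 and Ugt2b5 share, 62 bases, which no other promoter in the table of 32851 holds; Ugt2b34 is all in lower case because it lacks the run.
Ugt2b34, chr5:86906888-86907187, minus strand: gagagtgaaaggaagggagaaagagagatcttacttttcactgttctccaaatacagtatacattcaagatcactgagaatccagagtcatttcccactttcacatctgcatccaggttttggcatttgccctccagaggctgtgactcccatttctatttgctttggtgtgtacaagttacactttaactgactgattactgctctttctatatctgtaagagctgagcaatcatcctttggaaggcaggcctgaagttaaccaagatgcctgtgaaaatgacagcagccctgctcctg
Ugt2b37, chr5:87254739-87255038, minus strand: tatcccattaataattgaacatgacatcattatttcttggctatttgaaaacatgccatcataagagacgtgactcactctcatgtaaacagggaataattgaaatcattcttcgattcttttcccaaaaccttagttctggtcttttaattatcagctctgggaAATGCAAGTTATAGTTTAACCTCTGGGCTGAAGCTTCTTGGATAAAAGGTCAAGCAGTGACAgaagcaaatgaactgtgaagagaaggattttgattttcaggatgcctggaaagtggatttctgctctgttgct
Ugt2b38, chr5:87424154-87424453, minus strand: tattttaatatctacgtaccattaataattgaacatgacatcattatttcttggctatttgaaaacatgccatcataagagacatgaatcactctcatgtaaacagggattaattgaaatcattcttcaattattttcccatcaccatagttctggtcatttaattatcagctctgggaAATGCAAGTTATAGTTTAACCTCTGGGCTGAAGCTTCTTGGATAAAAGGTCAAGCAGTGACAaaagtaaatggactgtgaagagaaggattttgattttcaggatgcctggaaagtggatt
Ugt2b5, chr5:87140291-87140590, minus strand: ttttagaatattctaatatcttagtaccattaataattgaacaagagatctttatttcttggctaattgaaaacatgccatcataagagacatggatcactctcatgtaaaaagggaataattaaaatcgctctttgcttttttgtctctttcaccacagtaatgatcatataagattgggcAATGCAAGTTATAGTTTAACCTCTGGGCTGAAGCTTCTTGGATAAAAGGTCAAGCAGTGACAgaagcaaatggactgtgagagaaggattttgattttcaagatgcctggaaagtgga
In a pairwise alignment the Ugt2b37 and Ugt2b38 promoters were identical at 273 of 286 aligned bases (95.5%), and those of Ugt2b37 and Ugt2b5 at 246 of 276 (89.1%). The longest run that Ugt2b34 shared with any of the 3 was 11 bases. These copies also share mRNA sequence: 37.4% of the distinct 50-base words in Ugt2b38 transcripts and 18.3% of those in Ugt2b37 transcripts occur in another gene, mostly Ugt2b5, whereas the figure for Ugt2b34 was 1.44%. Reads from the shared words could be assigned to either copy, so the exact levels of Ugt2b37, Ugt2b38 and Ugt2b5 are uncertain.

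The Ugt3a pair, neighbours on the chromosome, was led by PTS2. Ugt3a2 gave 931, 752 and 637 TPM in PTS1, 2238, 2175, 2308, 2173 and 2388 TPM in PTS2 and 1321, 916 and 1242 TPM in PTS3. Ugt3a1 was listed at 95.2, 46.6 and 30.5 TPM in PTS1, at 1223, 1045, 1372, 1104 and 1261 TPM in PTS2 and at 818, 508 and 705 TPM in PTS3. The PTS1 order of Ugt3a1 was again that of Kap, and again not that of the other proximal markers. Ugt3a2 was thus high in all 3 segments, while Ugt3a1 was low in PTS1, with no overlap between PTS1 and PTS2 for either gene. The PTS1 minus PTS2 difference was -4.52 ± 0.39 for Ugt3a1 (adjusted p = 3.62e-13) and -1.56 ± 0.45 for Ugt3a2 (adjusted p = 0.00776); the difference between these differences was not tested.

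At the Ugt1a locus, Ugt1a7c and Ugt1a10 followed the PTS1 and PTS2 pattern. Ugt1a7c was 226, 258 and 225 TPM in PTS1, 398, 384, 333, 367 and 391 TPM in PTS2 and 44.6, 34.1 and 20.5 TPM in PTS3. The groups were ordered PTS2, PTS1, PTS3 without overlap, and PTS2 exceeded PTS3 by 3.54 ± 0.36 on the log2 scale (adjusted p = 3.26e-10). The PTS1 minus PTS2 difference of -0.655 ± 0.363 was not called (adjusted p = 0.261). The PTS1 and PTS2 means of Ugt1a10 were 11.1 ± 2.97 and 18.4 ± 8.59 TPM, and no mouse outside the proximal tubule exceeded 0.45 TPM. A further pair with a single-group call was low: Ugt1a1, the bilirubin-conjugating enzyme, was 3.67, 3.39 and 11.4 TPM in PTS1, and Ugt1a6b was 5.79 ± 0.693 TPM in PTS2, with a margin that fell to 0.99, below the size required, without PTS1 mouse 2.

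Ugt1a2 was a PTS1 transcript with wide spread. Its 3 PTS1 values were 14.7, 12.4 and 56.7 TPM, and no other mouse exceeded 2.34 TPM. Mouse 3 of PTS1, represented by a single piece, stood apart from the other PTS1 mice for both Ugt1a2 and Ugt1a1. Of the 50-base words of Ugt1a1, 58.2% also occur in Ugt1a2, so these values may not be independent. The margin of Ugt1a2 over the nearest group, OMCD, was 3.10 ± 0.31 (adjusted p = 3.07e-10), and without that mouse it was 2.43. Without the same mouse the Ugt1a1 margin over DCT fell from 1.08 to 0.58 and no longer passed (adjusted p = 0.404).

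Ugt1a6a, whose product conjugates small planar phenols, had its peak in the thick ascending limb. The 5 CTAL mice gave 82.8, 112, 123, 122 and 129 TPM. DCT was 36.4, 39.3 and 33.3 TPM, CNT 37.5, 36.2 and 36.8 TPM, and the MTAL values were 10.3, 14.2 and 5.22 TPM. Every CTAL mouse lay above every mouse of the other groups, and no proximal mouse passed 6.44 TPM. The CTAL margin over CNT was 1.58 ± 0.32 (adjusted p = 0.00882), and with any 1 of DCT mice 1 and 3 or CNT mice 1, 2 and 3 left out the adjusted p was 0.055 to 0.0845.

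Because each Ugt1a mRNA starts at its own first exon, promoters are shown for Ugt1a2, Ugt1a7c and Ugt1a6a, which had the highest means among the Ugt1a members that peaked in PTS1, in PTS2 and in CTAL, with capitals for the 50 bases from the annotated start onward (RefSeq, GRCm38.p6).
Ugt1a2, chr1:88200361-88200660, plus strand: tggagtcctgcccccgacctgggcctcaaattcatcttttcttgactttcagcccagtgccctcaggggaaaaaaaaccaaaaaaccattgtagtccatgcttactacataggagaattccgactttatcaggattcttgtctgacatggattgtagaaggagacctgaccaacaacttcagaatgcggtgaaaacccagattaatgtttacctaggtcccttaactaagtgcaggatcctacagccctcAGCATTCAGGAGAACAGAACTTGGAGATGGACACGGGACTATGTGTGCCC
Ugt1a7c, chr1:88094751-88095050, plus strand: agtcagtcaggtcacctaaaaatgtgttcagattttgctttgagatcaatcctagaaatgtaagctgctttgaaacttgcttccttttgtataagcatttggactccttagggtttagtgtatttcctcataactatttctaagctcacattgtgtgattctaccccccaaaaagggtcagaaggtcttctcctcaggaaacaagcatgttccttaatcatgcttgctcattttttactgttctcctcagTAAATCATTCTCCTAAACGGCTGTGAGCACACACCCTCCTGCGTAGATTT
Ugt1a6a, chr1:88134559-88134858, plus strand: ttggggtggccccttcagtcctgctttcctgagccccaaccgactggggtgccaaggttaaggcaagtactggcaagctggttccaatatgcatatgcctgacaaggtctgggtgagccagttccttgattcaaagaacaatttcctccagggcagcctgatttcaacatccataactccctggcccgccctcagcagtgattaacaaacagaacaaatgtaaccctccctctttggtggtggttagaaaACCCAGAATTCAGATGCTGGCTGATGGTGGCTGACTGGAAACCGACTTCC
All lie on chromosome 1, in the order Ugt1a7c, Ugt1a6a, Ugt1a2 along the plus strand. The exons downstream of the first are common to all, and 53.7% of the 50-base words of Ugt1a7c, 52.1% of those of Ugt1a6a and 63.7% of those of Ugt1a2 also occur in another gene. Their TPM values therefore rest on how the counting program shared out reads of the common exons. The same holds for Ugt1a6b, with 79.8% of its words in another gene, Ugt1a10 (63%) and Ugt1a1 (58.2%). Members below 1 TPM beside an abundant copy are uncertain too.

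**Figure D3:**
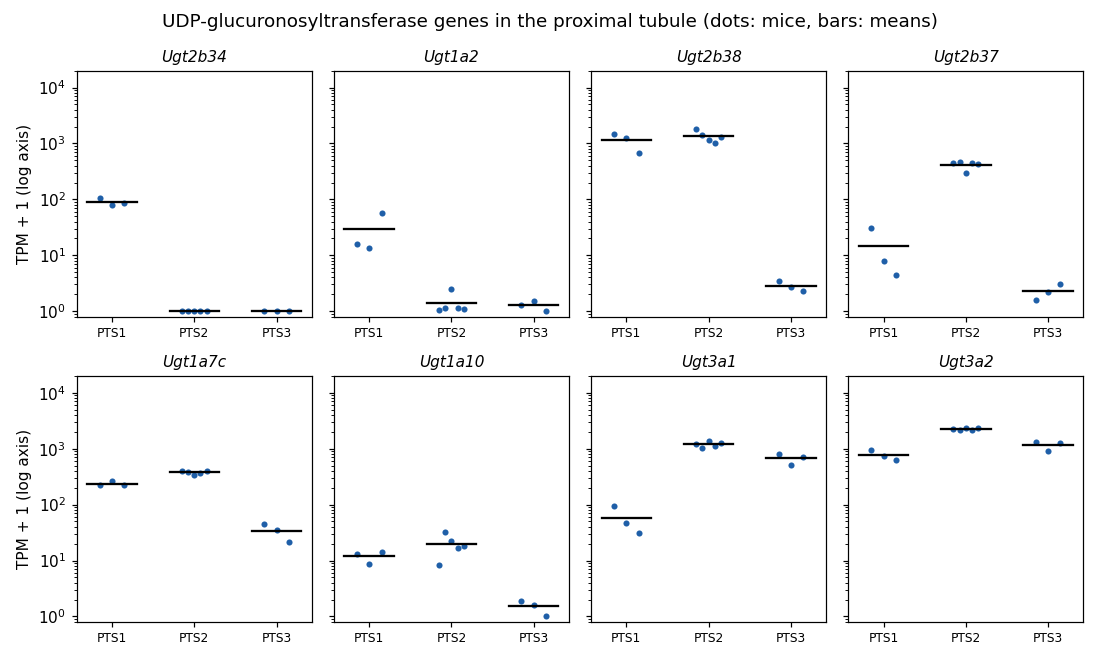
TPM plus 1 on a log axis for 8 Ugt genes in PTS1, PTS2 and PTS3; dots are mice and bars are means. Ugt2b34 and Ugt1a2 are high in PTS1, Ugt2b38 in PTS1 and PTS2, Ugt2b37 in PTS2, and Ugt3a1 in PTS2 and PTS3.

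Counted over all members, 12 were higher in PTS1 and 7 higher in PTS2, where 4.46% and 5.1% of all genes were called, 9.57% in either direction. Between PTS2 and PTS3, 10 were higher in PTS2 (background 3.94%) and 1, Gstm1, in PTS3 (0.755%); rescaling by the median ratio gave 10 and 3, and quantile normalization 8 and 3. In either direction 4.7% of all genes were called. Between PTS1 and PTS3, 17 were higher in PTS1 (6.14%) and 5 in PTS3 (3.97%), beside 10.1% in either direction. Of the 10 members that were higher in PTS2 than in PTS3, 7 were Ugt1a or Ugt2b genes: Ugt2b38, Ugt2b37, Ugt2b5, Ugt1a10, Ugt1a7c, Ugt1a6b and Ugt1a6a. The mice of the groups compared did not overlap for any called member in these comparisons except Gstm2 between PTS1 and PTS3, which is near the background of 96.9% to 99.6% of all genes called. The median log2 difference of members for PTS1 minus PTS2 was 0.25, beside 0.15 for all genes.

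Outside the proximal tubule some Ugt members were listed at low values in the groups that also held proximal markers. Ugt2b38 was 3.86 ± 2.3 TPM in CTAL and 0.302 ± 0.522 TPM in MTAL, a called difference (-1.90 ± 0.49, adjusted p = 0.00799), and 4.28 ± 3.96 TPM in CCD and 0.0563 ± 0.0419 TPM in OMCD (2.04 ± 0.45, adjusted p = 0.000684). Ugt3a2 was called in the same 2 comparisons. The proximal marker Kap moved the same way, with means of 200.5 TPM for CTAL, 3.56 TPM for MTAL, 238 TPM for CCD and 5.36 TPM for OMCD. Slc34a1, Slc22a6 and Miox did so too in both comparisons, without overlap of mice. Lrp2, Cubn and Slc5a2 were higher in every CTAL mouse than in every MTAL mouse. Between CCD and OMCD these last markers overlapped, at 1.285 TPM or less in each mouse. In DCT, mouse 1 held 17.9 TPM of Ugt2b38 and 12.1 TPM of Ugt3a2, the other mice 0.665 TPM or less, and Slc34a1, the proximal phosphate transporter, ranged from 2.3 to 158 TPM. In DTL1, whose Ugt sum was mostly Ugt3a1 and Ugt3a2, Ugt3a2 was 97.3, 28.4 and 71.9 TPM and Kap 4198, 1030 and 2266 TPM in the same order of mice. Slc34a1 ranked these mice alike, at 2.5, 1.76 and 1.84 TPM. The other proximal markers did not, among them Miox at 64.6, 34.7 and 102.5 TPM. The part of proximal RNA in these values was not tested. In CNT the order of the pair was turned: Ugt3a1 was 6.73, 4.94 and 4.81 TPM and Ugt3a2 3.84, 0.485 and 0.08 TPM, so that every CNT mouse had more Ugt3a1, whereas every proximal mouse had more Ugt3a2.

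Among the alpha-class Gst genes, Gsta2 was highest in PTS1, and Gsta4 had its highest mean in DCT and was shared by several groups. Gsta2 was 1086, 833 and 1191 TPM in PTS1, and 17.6, 30.2, 17.1, 23.7 and 19.3 TPM in PTS2. PTS3 gave 8.72, 6.12 and 10.2 TPM, and CNT 26, 29.8 and 34.4 TPM. The PTS1 mice lay above all others, and CNT, with the next highest mean, overlapped PTS2. The log2 difference between PTS1 and PTS2 was 5.56 ± 0.28 (adjusted p = 3.96e-21). In CNT, the PTS1 glucose transporter Slc5a2 was at 0.27 to 2.76 TPM; its part in the Gsta2 level there was not tested. All other genes combined hold 49.8% of the 50-base words of Gsta2, and the copy Gsta1, which alone holds 36% of them, stayed at or below 2.09 TPM, so the split of reads between these copies is uncertain.

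Gsta4, which detoxifies the lipid aldehyde 4-hydroxynonenal, was 435, 425 and 409 TPM in DCT, 78.7, 40.7 and 138 TPM in PTS1, and 0.79 to 2.20 TPM in PTS2. CNT (229, 230 and 260 TPM) and the glomerulus (243, 224 and 223 TPM) followed DCT and overlapped each other. Gsta4 thus fell after PTS1 by 5.09 ± 0.43 on the log2 scale (adjusted p = 2.16e-13), was higher in CTAL than in MTAL by 1.53 ± 0.43 (adjusted p = 0.0179) and higher in CCD than in OMCD by 2.84 ± 0.39 (adjusted p = 4.13e-07). Gsta3 had another order: its highest mean was 215 ± 15.8 TPM in OMCD (n = 4), it was 157 ± 24.2 TPM in DTL3, and in DCT, where Gsta4 peaked, it was 4.28 ± 0.0252 TPM.

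The mu-class genes Gstm1 and Gstm2 lie next to each other and parted in the proximal tubule. Gstm1 rose from 231, 242 and 219 TPM in PTS1 to 1744, 2016, 1546, 2755 and 2131 TPM in PTS2 and 5506, 5737 and 6138 TPM in PTS3. Each step was free of overlap, with log2 differences of -3.11 ± 0.21 for PTS1 minus PTS2 (adjusted p = 1.28e-16) and -1.53 ± 0.21 for PTS2 minus PTS3 (adjusted p = 2.58e-07). Gstm2 was 6.27 TPM or less in all 11 proximal mice. In IMCD both were abundant: Gstm1 was 6734, 8410 and 8577 TPM and Gstm2 4656, 4368 and 5313 TPM.

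Along the collecting system Gstm2 increased stepwise in its group means, from 139 ± 9.52 TPM for DCT and 1015 ± 57.6 TPM for CNT to 1807 ± 79.4 TPM for CCD, 2060 ± 33.8 TPM for OMCD and finally 4779 ± 484 TPM for IMCD. Gstm1 stayed between 606 and 953 TPM in the CNT, CCD and OMCD mice. In CNT, CCD and OMCD the lowest Gstm2 value lay above the highest Gstm1 value, and in 11 other groups Gstm1 lay above Gstm2 in the same way. In CTAL the ranges overlapped, although each of the 5 mice had more Gstm2. The OMCD minus IMCD difference was -3.39 ± 0.22 for Gstm1 (adjusted p = 2.73e-17) and -1.20 ± 0.25 for Gstm2 (adjusted p = 0.000117), and under quantile normalization the Gstm2 difference was -0.95 and below the size required. Gstm3, at 6.91, 6.45 and 7.57 TPM, was an IMCD transcript at a low level, and no other mouse exceeded 1.91 TPM. Other genes hold 28.8% of the 50-base words of Gstm3, 18.9% of those of Gstm1 and 5.65% of those of Gstm2, so the low Gstm3 level beside its abundant relatives is uncertain.

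The same pair changed together in the thin limbs. In DTL1 Gstm1 was 7337, 6914 and 7864 TPM and Gstm2 1684, 1781 and 1425 TPM. DTL3 exceeded DTL2 by 1.87 ± 0.23 for Gstm1 (adjusted p = 2.84e-08) and by 3.94 ± 0.26 for Gstm2 (adjusted p = 5.12e-16). In ATL, whose mice gave 31.8 to 80.1 TPM of Gstm1 and 6.86 to 8.64 TPM of Gstm2, both were at their lowest outside the proximal tubule. Gstm5, which shares no 50-base word with another gene, was highest in PTS3 (432 ± 30.1 TPM) and PTS1 (360 ± 16.5 TPM) and at or below 175 TPM in every mouse outside the proximal tubule.

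The theta-class neighbours Gstt1 and Gstt2 changed places along the nephron. Gstt1 was 1199, 1111, 1155, 1127 and 1109 TPM in CCD and 24.1, 26.3, 21.1, 27.6 and 19.9 TPM in PTS2. Gstt2 was 1122, 1128 and 1080 TPM in PTS3 and 114, 145, 135, 143 and 142 TPM in CCD. In MTAL, CTAL, DCT, CNT, CCD and OMCD every Gstt1 value lay above every Gstt2 value, and in the glomerulus, the 3 proximal segments and the 3 descending limbs the order was the reverse. In ATL and IMCD the ranges overlapped, although each mouse had more Gstt1. Gstt1 also showed a PTS1 level (271, 245 and 255 TPM) above that of PTS2, by 3.40 ± 0.25 (adjusted p = 1.67e-15). No 50-base word of Gstt1 and 0.377% of those of Gstt2 occur in another gene. Gstt3, the third neighbour, had a lower call in the proximal tubule that was lost under both other scalings, and had its highest mean in IMCD at 529 ± 129 TPM.

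**Figure D4:**
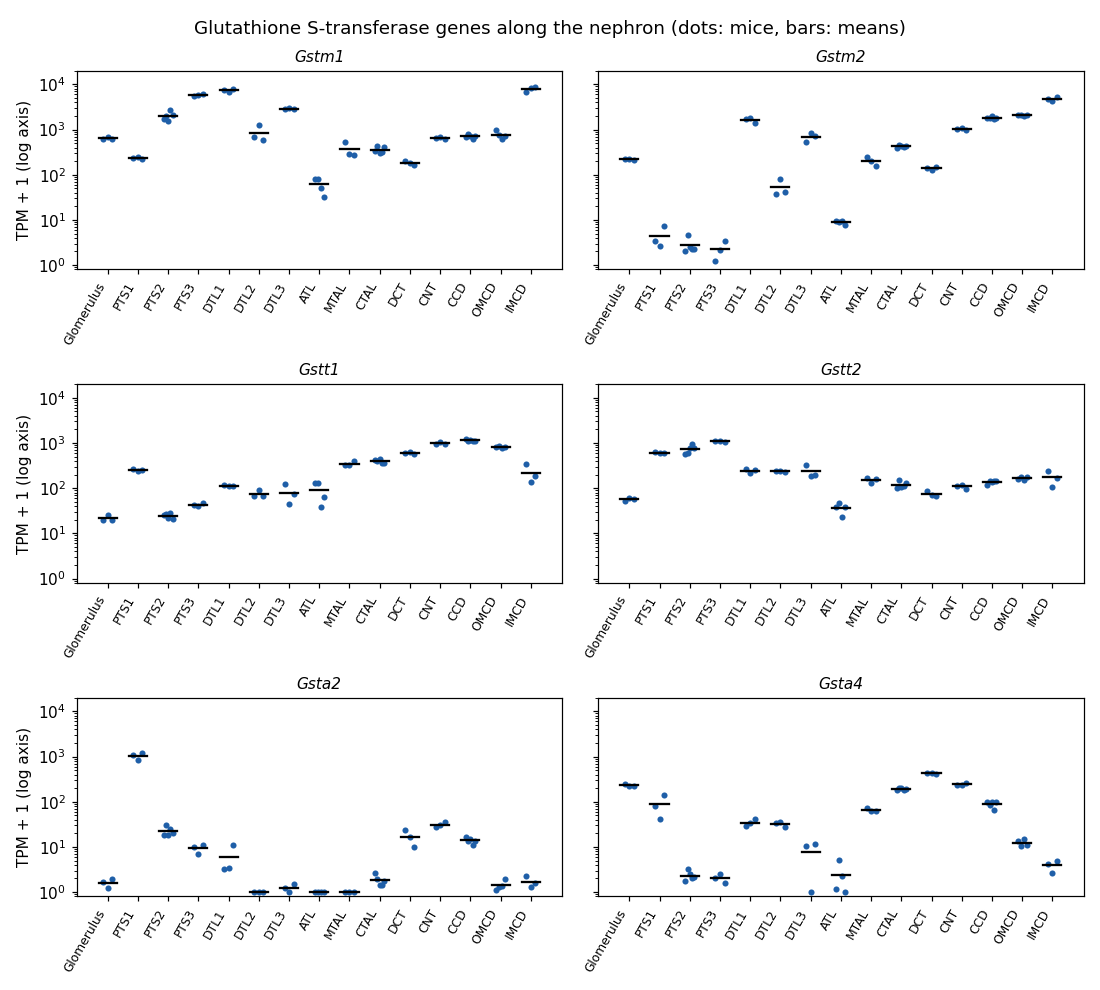
TPM plus 1 on a log axis for 6 Gst genes in the 15 groups; dots are mice and bars are means. Gstm1 rises and Gstm2 stays at the bottom of the axis in the 3 proximal segments, Gstt2 lies above Gstt1 in the proximal segments and below it from MTAL to OMCD, and Gsta2 stands highest in PTS1 and Gsta4 in DCT.

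The remaining Gst classes had 1 abundant member each. Gstp1, which has 33.7% of its 50-base words in common with Gstp2, had group means from 178 TPM in MTAL to 1204 TPM in DTL3, where the mice gave 1447, 996 and 1170 TPM. Gstk1, an enzyme of mitochondria and peroxisomes, had its highest mean in DCT at 185 ± 5.1 TPM and its lowest in DTL3 at 11.5 ± 5.03 TPM. Gstz1 was 191 ± 8.37 TPM in PTS1, 508 ± 52.5 TPM in PTS2 and 549 ± 34 TPM in PTS3, with no mouse elsewhere above 61.4 TPM. Gsto1, an omega-class enzyme with thiol transferase activity, fell along the proximal tubule from 126, 126 and 147 TPM in PTS1 to 9.72 to 14.8 TPM in PTS2 and 1.66, 0.65 and 0.14 TPM in PTS3. The 3 groups did not overlap, and the differences were 3.26 ± 0.25 between PTS1 and PTS2 (adjusted p = 1.53e-14) and 3.07 ± 0.25 between PTS2 and PTS3 (adjusted p = 5.91e-13). Its highest mean, 199 ± 23.6 TPM, was in CTAL.

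The segments in which sulfotransferase mRNAs were highest differed from gene to gene. Sult1d1, which acts on catecholamines and eicosanoids, was 341, 406 and 214 TPM in PTS1, 147 to 253 TPM in PTS2 and 305, 294 and 280 TPM in PTS3. It was also present in CTAL (136 ± 34 TPM) and MTAL (135 ± 90.2 TPM), and its DTL2 mice were widely spread at 53.5, 5.25 and 155 TPM. The DTL2 minus DTL3 difference was 4.31 ± 0.60 (adjusted p = 3.57e-07). It was 3.28 without DTL2 mouse 3 and 5.61 without DTL2 mouse 2. Sult1c2 had peaks in PTS1 (173, 143 and 168 TPM) and MTAL (126, 133 and 180 TPM), which overlapped, with 17.6 to 28.8 TPM in the PTS2 and PTS3 mice. It was higher in MTAL than in CTAL by 1.99 ± 0.20 (adjusted p = 1.79e-10).

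Sult1a1, a phenol sulfotransferase, was low in the proximal tubule. It was 4.03 TPM or less in all proximal mice, 100, 115 and 104 TPM in DCT and 110, 86.1 and 267 TPM in DTL2. The proximal minus other tubule difference was -4.08 ± 0.14 (adjusted p = 1.43e-28). DCT lay above CTAL by 1.27 ± 0.29 (adjusted p = 0.00173) without overlap.

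Sult2b1, the cholesterol sulfotransferase, had its highest means in the inner medullary thin limbs and the OMCD. DTL3 gave 134, 135 and 135 TPM, ATL 95, 115, 44.6 and 87.6 TPM and OMCD 47.4, 95.7, 70.3 and 58.9 TPM. DTL2 followed with 42.5, 48.3 and 31.6 TPM, which overlapped ATL and OMCD, and DTL1 with 25.2 to 39.8 TPM. Proximal mice stayed at or below 2.45 TPM, CTAL and DCT mice at or below 2.48 TPM, and IMCD mice at or below 5.50 TPM. OMCD exceeded CCD by 2.60 ± 0.25 (adjusted p = 3.32e-11) and IMCD by 4.11 ± 0.28 (adjusted p = 2.12e-16). Sult5a1, a sulfotransferase with no well-described substrate, was high in 2 neighbouring segments, with 33.2, 37.6 and 42 TPM in CNT and 36.3, 37.3, 31.1, 33.4 and 53.9 TPM in CCD, and 13.2 TPM or less in every other mouse. Sult2a3 was the CNT gene with the single-group call, at 3.69, 3.03 and 5.26 TPM, followed by DCT at 0.72 to 1.84 TPM.

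**Figure D5:**
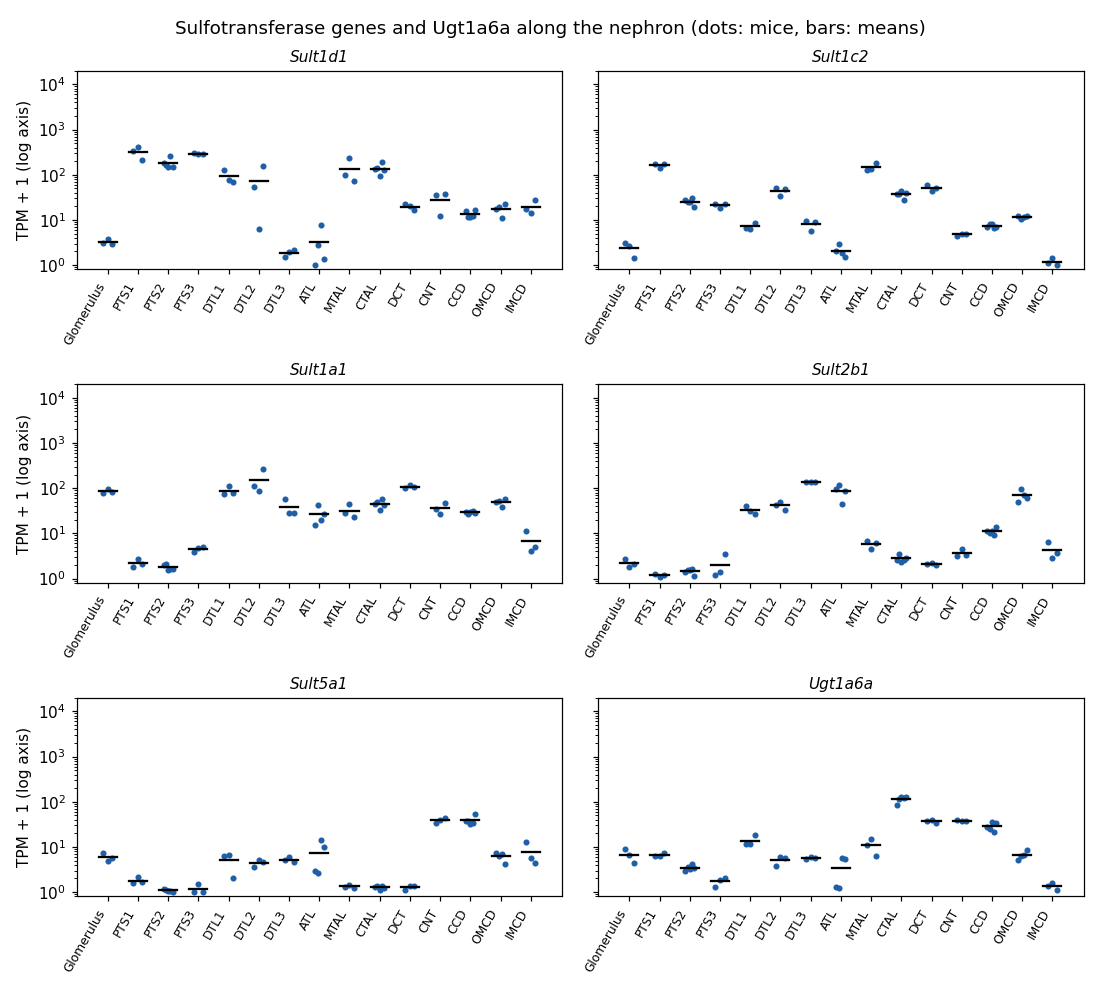
TPM plus 1 on a log axis for 5 Sult genes and Ugt1a6a in the 15 groups; dots are mice and bars are means. Sult1a1 and Sult2b1 are near the bottom of the axis in the proximal segments, Sult5a1 is high in CNT and CCD, and Ugt1a6a peaks in CTAL.

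In the comparisons of neighbouring segments beyond the proximal tubule, the counts were as follows. Between DTL2 and DTL3, 9 members were higher in DTL2 (background 3.5%) and 4 in DTL3 (6.08%): Gstm2, Gstm1, Sult2b1 and Gstt3. The background in either direction was 9.58%. The 9 include Ugt3a1, at 38.8, 5 and 3.48 TPM in DTL2, and Ugt3a2. In the same mice the proximal marker Kap was 441, 113 and 137 TPM, and it was 30.6 TPM or less in DTL3. The other proximal markers overlapped between these groups, among them Miox at 27.2, 9.88 and 6.31 TPM in DTL2 and 2.17, 1.19 and 10.4 TPM in DTL3. The part of proximal RNA in these differences was not tested. Between MTAL and CTAL, 2 were higher in MTAL, Sult1c2 and Sult2b1 (0.589%), and 9 in CTAL (2.57%), and without MTAL mouse 3 the total of 11 (background 3.15%) became 7. Ugt1a6a and Gsta3 led the 9, with differences of 3.49 ± 0.32 (adjusted p = 2.45e-11) and 2.39 ± 0.28 (adjusted p = 2.47e-08) in favour of CTAL. The other 7 included Gsta4, Gstm5 and Gstm2, and 4 Ugt members below 4 TPM in CTAL that have their highest level in the proximal tubule.

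Between CTAL and DCT, 5 members were higher in CTAL (2.34%), Sult1d1, Gsta3, Ugt1a6a, Gstm2 and Gstm5, and 4 in DCT (2.01%), Gsta2, Ugt1a1, Sult1a1 and Gstm7. With either other scaling the split was 4 and 6; 4.35% of all genes were called in either direction. Between CCD and OMCD, 7 were higher in CCD (1.73%) and 2, Sult2b1 and Gsto2, in OMCD (10.4%), whereas most of all genes called were higher in OMCD. Quantile normalization gave 8 and 1, and 12.1% of all genes were called in either direction. Between OMCD and IMCD, 10 were higher in OMCD (15.2%) and 5 in IMCD (3.4%), the latter being Gstm1, Gstm3, Sult1b1, Gstm2 and Gstp1; quantile normalization gave 8 and 7. In either direction 18.6% of all genes were called. Sult2b1 and Sult1c2 had the largest differences toward OMCD, the second at 3.30 ± 0.20 (adjusted p = 9.02e-18).

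The enzymes that supply the donors did not all follow the transferases. Of 8 genes of glutathione synthesis and mercapturate formation, 7 were higher in the proximal tubule than in the other tubule groups (4.02% of all genes) and none was lower. Of the 8, 6 were higher in PTS2 than in PTS1 (5.1% of all genes), among them Gclm, a subunit of the enzyme that starts glutathione synthesis (1285 ± 70.5 against 183 ± 11.7 TPM), Gss (1679 ± 89.9 against 274 ± 16.4 TPM), Ggt1, which trims glutathione conjugates (3916 ± 496 against 172 ± 74.8 TPM) and Nat8, which acetylates the cysteine conjugate (559 ± 32.2 against 32.1 ± 18.1 TPM). Dpep1, which acts after Ggt1, was called in the other direction (4.46% of all genes), and Anpep in neither. Dpep1 was 502 ± 34.8 TPM in PTS1 and 7.52 ± 3.01 TPM in PTS2.

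Of 4 genes listed for UDP-glucuronate supply and for cleavage of glucuronides, 2 were higher in the proximal tubule (4.02% of all genes). They were Ugdh, which makes UDP-glucuronate, and the transporter Slc35d1. Ugdh was 47.3 ± 3.58 TPM in PTS1, 181 ± 30.9 TPM in PTS2 and 281 ± 34.4 TPM in PTS3. Of 4 tested genes around sulfate activation, 2 were higher in the proximal tubule (Papss2 and the sulfate transporter Slc26a1) and 1, Papss1, lower, beside the same 4.02% and 19.8% of all genes. The PAPS synthases thus parted: Papss2 was 222 ± 19.6 TPM in PTS2 and at or below 1.09 TPM on average from DCT to IMCD, while Papss1 was 454 ± 6.49 TPM in DCT and every mouse of 11 groups had more Papss1 than Papss2. The reverse held in every proximal mouse. Among the regulator genes, the nuclear receptor Hnf4a was higher in the proximal tubule, and Nfe2l2 and Ahr, which respond to electrophiles and aromatic compounds, were lower. Hnf4a was 142 ± 15 TPM in PTS2 and below 1 TPM on average from MTAL to IMCD; Nfe2l2 was 30.8 ± 4.1 TPM in PTS2 and 356.5 ± 39.4 TPM in CCD. Among the other conjugating enzymes, Tpmt, which methylates thiopurines, was higher, and Mgst1, a membrane-bound glutathione transferase, and Nnmt were lower. Nnmt did not pass a group mean of 0.727 TPM from MTAL to CCD. Among the tubule groups, its means of 2 to 10.3 TPM were in the thin limbs and OMCD, which listed many receptor genes. The glomerulus, which also listed many, gave 6.55, 6.5 and 2.85 TPM of Nnmt. Over all 5 lists of related genes, 15 of 32 tested were higher in the proximal tubule and 5 lower, beside 4.02% and 19.8% of all genes.

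Promoters were in the RefSeq table for 56 of the 64 members. The antioxidant response motif TGACNNNGC, the letters associated with Nfe2l2, was found on either strand in promoters of 3 members, Gsta3, Gstm5 and Gstm7, and in 12.4% of all promoters of the same length. The Hnf4-type motif CAAAGTCCA was found for Sult1b1 and in 0.475% of all promoters. A match is a description of the letters in this window.

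Low values in the groups with many receptor genes are given apart. A set of 8 tested members, chosen for their low values (Ugt1a5, Ugt1a9, Ugt2b36, Ugt2a3, Gstt4, Gstp3, Sult2a8 and Sult4a1) never passed a group mean of 3.06 TPM. All 8 were at or below 2.32 TPM on average in each proximal segment. In DTL1, which held the mouse with the most receptor genes at 1 TPM or more, they ranged from 0.86 to 3.06 TPM. Both ends of that range rested mainly on a single mouse: Ugt1a5 was 2.31, 0.27 and 0 TPM, and Gstp3 0, 1.02 and 8.16 TPM. Not all were highest in such groups: Ugt2a3 had its highest mean, 2.205 TPM, in PTS1. Gstp3 was also listed at 2.185, 3.29 and 1.485 TPM in PTS3. The part of these listings that reflects conjugation enzyme mRNA of the thin limb cells was not tested.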

How the data were processed

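The authors deposited 1 table of transcript abundances in TPM, which correct for transcript length and scale each sample to a fixed total, for microdissected renal tubule segments and glomeruli. Per the labels' protocols, the libraries were Nextera XT libraries of SMARTer V4 Ultra Low cDNA, from RNA purified with Direct-zol kits. The submitters' processing notes name STAR 2.5.4a and RSEM 1.3.0; the genome build of the table is not given in the sources used here. The deposited TPM values are rounded to 2 decimals in tubule columns and to 1 decimal in glomerulus columns, and they sum to 999998.6 to 1000190.3 in each column, so the read depth behind a value is unknown. The authors' 14 columns of segment means were not used, and the 3 single-cell samples of the series were not analysed here.

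Groups and mouse numbers came from the sample titles. One PTS2 column matched no title and entered as a PTS2 mouse without a number. Pieces of a mouse were averaged, as TPM for printed levels and as log2(TPM + 1) for tests; the added 1 makes log2 differences understate the change of low genes. Genes with at least 1 TPM in at least 3 mice (33793) were fitted with limma 3.58.1 in R 4.3.3, with 15 group means in 1 fit, a variance trend and Benjamini-Hochberg adjustment over all genes of each comparison. Called means an adjusted p under 0.05 and a log2 difference of at least 1. The single-group call takes the largest p over the comparisons with the 14 other groups. The fit was tested on simulated data.

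The members follow a rule on gene symbols. Members, related gene lists, markers and tests were chosen with earlier results of these data known. Some genes of the related lists are not reported by name here. Full values were set for members with a single-group call, for the 2 called members with the largest difference in each direction of a comparison (with no overlap of mice between neighbouring groups, and a mean of 10 TPM or more where it was higher) and for the member with the highest mean of each subfamily; other members were named after their values were seen. Read sharing was computed as the share of distinct 50-base words of a member's GENCODE M21 transcripts found in another gene, and promoters came from a RefSeq table on GRCm38.p6. Alternatives were other pseudocounts, filters, scalings, averaging, a replicate block and leaving out each mouse. Python 3.11.15 was used for tables and figures.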

Additional observations from a re-analysis of the deposited data

Results flagged for a closer look

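On the log2(TPM + 1) scale, of the 86 combinations of a member and a group of 4 or 5 mice with a mean of at least 10 TPM, 4 held a mouse far from the others, and chance alone gives about 1 in 20. PTS2 mouse 4 had 291.7 TPM of Ugt2b37, and the others had 427 to 458 TPM. For Gsto1, PTS2 mouse 5 stood at 9.72 TPM against 13.3 to 14.8 TPM. In CCD, Gstk1 was 91.39 TPM in mouse 4 against 115 to 124 TPM, and Gstz1 was 43.39 TPM in mouse 1 against 55.8 to 60.8 TPM. Each of these was the lowest value of its group, and they came from 4 different mice.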

How the results depend on the processing

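No direction of a named result was reversed under any alternative, and 5 of the 11 counts stayed within 1.5 times under all of them. With a pseudocount of 0.1 in place of 1, 5 members in place of 10 had a single-group call, and the called members numbered 14 in place of 9 for CCD against OMCD and 23 in place of 15 for OMCD against IMCD. With a pseudocount of 5 the calls numbered 12 in place of 19 for PTS1 against PTS2, 7 in place of 11 for PTS2 against PTS3 and 6 in place of 11 for MTAL against CTAL; a larger pseudocount shrinks the differences of low genes by construction. Leaving out each mouse in turn gave 7 to 12 calls for MTAL against CTAL, the lowest without MTAL mouse 3. The single-group calls lost at 0.1 were those of Gstm2, Sult2a3, Ugt1a1, Ugt1a6a and Ugt1a6b; those lost at 5 were Sult2a3, Ugt1a1 and Ugt1a6b, and quantile normalization lost Gstm2 and Sult2a3. Leaving out PTS1 mouse 2 lost Ugt1a6b. The cause was not tested.

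Median-ratio rescaling moved the median log2 difference of all genes by 0.22 for the proximal comparison and by -0.13 for OMCD minus IMCD. Quantile normalization moved it by 0.38 and -0.33 there, and by -0.15 for PTS1 minus PTS2, -0.20 for PTS1 minus PTS3, 0.18 for DTL2 minus DTL3 and 0.30 for CCD minus OMCD. No called member changed sign under either rescaling, and 24 of 27 proximal calls were kept under quantile normalization. With the mouse number as a replicate block, 27 members were called for the proximal comparison, 20 for PTS1 against PTS2 and 10 had a single-group call. The titles do not say whether a number is the same mouse in different segments. Each combination of number and segment was taken as a mouse, which gives the 53 mice the study states. Samples with the same number in different segments did not deviate together: the median correlation of their deviations was 0.000185 over 290 pairs. Without the glomerulus, DTL1 and ATL mice 4 and 6, which listed many odorant and vomeronasal receptor genes, the single-group calls again numbered 10. Depth is unknown for TPM values, so a member listed at 0 cannot be given an upper limit.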
